A study of Homo sapiens with 7 samples.

Results

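CPVL, a serine carboxypeptidase, was examined in ACHN renal carcinoma cells together with its relatives, the cathepsins and other genes of the lysosome. The set held 47 genes, which the array covered with 62 of its 42405 probes and which are 47 of its 34809 gene names. CPVL was chosen by its difference between HOTAIR-overexpressing and control cells on these same arrays, so its values are given as a description and without a test. The other 46 genes were chosen by name, as relatives of CPVL or as parts of the lysosome, at a time when results of these arrays were already known. A probe was tested where it was well above background, by the scanner software's own call, on every array of at least 1 group. By this rule 44 of the 47 genes and 57 of their 62 probes were tested, among 20419 tested probes in all. CTSF, CTSS and GALC did not rise well above background anywhere and have no test.

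Lysosomes are acidic organelles in which hydrolases break down proteins, glycans and lipids delivered by endocytosis and autophagy. Cathepsins are the main lysosomal proteases, and serine carboxypeptidases such as CTSA and SCPEP1 trim peptides from the carboxyl end. A membrane proton pump keeps the organelle acidic, and LAMP proteins coat its membrane. TFEB, TFE3 and MITF are transcription factors that bind a short palindrome upstream of many lysosomal genes. CPVL is known from macrophages, and its function in renal cells is poorly described.

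ACHN is an established cell line from a human renal cell adenocarcinoma. The 4 ACHN-EV samples (EV 1 to 4) carried the empty pBabe-hygro retroviral vector, and the 3 ACHN-HOTAIR samples (HOTAIR 1 to 3) carried the same vector with the cDNA of HOTAIR, a long non-coding RNA that binds chromatin-modifying complexes. Both were selected with hygromycin, and the comparison asks which transcripts differ when HOTAIR is overexpressed. Total RNA of each sample was labelled with Cy3 and hybridised to 1 one-colour Agilent array. Whether the samples of a group were separate cultures or repeats of 1 transduced population is not stated, so the p-values measure only the spread between these samples, which may be technical.

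Levels are given as log2 of the processed signal minus log2 of that array's own 75th percentile, and differences as HOTAIR minus EV on that log2 scale. The 75th percentile lay between 523 and 649 intensity units, 48.7 to 52.2% of probes were well above background, and no spot was saturated. The probe for HOTAIR itself stood well above background on all 3 HOTAIR arrays and on no EV array. With EV taken at no less than the dimmest signal called well above background on each array, the ratio was 9.46-fold. That is no firm lower limit, and it exceeds what the study measured in ACHN cells by real-time PCR. It describes the transgene and is not used as a test. The kidney epithelial markers PAX8, PAX2, KRT8, KRT18, LHX1 and CA12 were well above background on all 7 arrays, and CDH6 was on none. CA12 differed by 1.09 with no overlap between the groups (limma adjusted p = 0.532). All 7 arrays shared 1 slide and 1 scan, but EV and HOTAIR arrays sat in different rows of it, so an effect of the row and one of the group cannot be told apart. EV 2 stood apart from the other EV arrays in this gene set, as did HOTAIR 3 to a lesser degree from the other HOTAIR arrays. Without EV 2, and with HOTAIR 3 kept, the difference changed sign in 13 of the 43 tested genes other than CPVL. Neither is read as particular to this set, since no share over all tested probes stands beside these values.

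The 60-base probe of CPVL carries the difference that brought the gene into the set, and it is printed beside the most 5′ probes of its relatives SCPEP1 and CTSA. The CPVL probe lies at chr7:29105671-29105730 (hg19, minus strand), at base 1078 of the transcript. The SCPEP1 probe lies at chr17:55065591-55065650 (hg19, plus strand), at transcript base 538, and the CTSA probe at chr20:44523321-44523380 (hg19, plus strand), at base 1283.
CPVL: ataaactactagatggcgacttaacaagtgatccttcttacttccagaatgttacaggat
SCPEP1: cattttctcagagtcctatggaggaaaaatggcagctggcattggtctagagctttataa
CTSA: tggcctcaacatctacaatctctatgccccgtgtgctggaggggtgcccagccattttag
The longest stretch the CPVL probe shared on the same strand with any probe of another name was 14 bases, with 1 lincRNA probe. CPVL had no second probe on this array against which its value could be set.

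CPVL was higher in ACHN-HOTAIR cells than in ACHN-EV cells on every array. Its processed signal was 5.33, 4.55, 7.09 and 5.9 intensity units on EV 1 to 4, and none of these was well above background. On HOTAIR 1 to 3 it was 56.1, 36.3 and 40, each well above background. The spots before background subtraction read 56.5 to 59.5 on the EV arrays and 83.7 to 103 on the HOTAIR arrays, so the groups did not overlap before or after subtraction. Relative to the 75th percentile the means were -6.65 ± 0.29 (SD, n = 4) and -3.75 ± 0.21 (SD, n = 3), a difference of 2.90. EV was also taken at no less than the dimmest signal that the software called well above background on each array, at a mean of -6.23. The ratio for CPVL was then 5.57-fold. That floor is no detection limit, since brighter probes could go uncalled, such as RRAGB at -5.50 to -5.30 on the EV arrays. The ratio is therefore not a firm lower limit. The size rested on how background was handled. With normexp background correction, which adds an offset of 50 to every spot, the difference was 0.52, and under the other scalings and with single arrays left out it stayed between 2.78 and 3.00. In bulk RNA, more cells that express CPVL and more CPVL RNA per cell cannot be told apart.

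**Figure D1:**
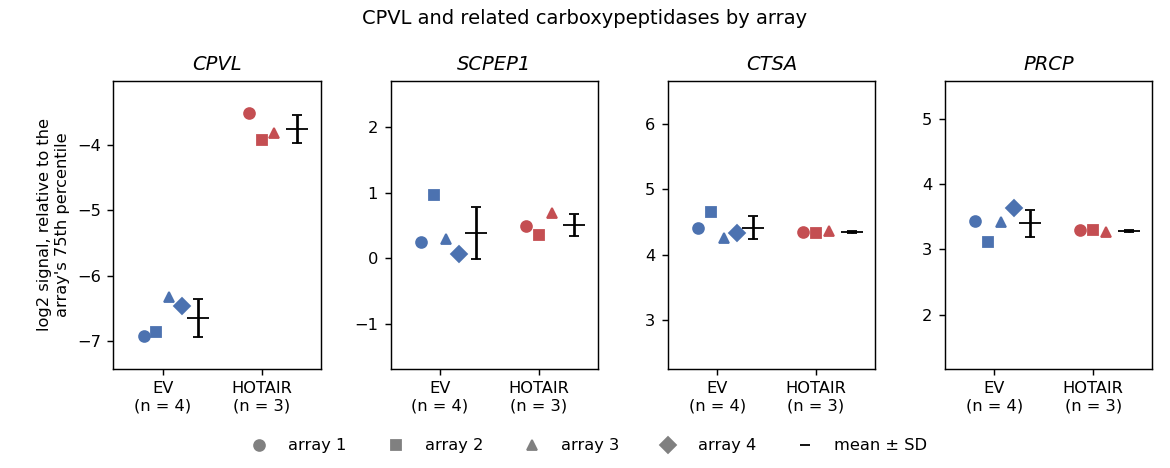
Levels of CPVL, SCPEP1, CTSA and PRCP on each array, in log2 units against the 75th percentile of that array. Symbols are single arrays (EV blue, HOTAIR red), bars show mean ± SD, and every panel spans the same log2 range. CPVL arrays separate by group, whereas the arrays of the other genes overlap.

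The relatives of CPVL did not show a difference of that kind. SCPEP1, a retinoid-inducible serine carboxypeptidase, read 0.25, 0.96, 0.29 and 0.06 on EV 1 to 4 and 0.49, 0.35 and 0.69 on HOTAIR 1 to 3. The HOTAIR arrays fell inside the range of the EV arrays, with EV 2 the highest of all 7. The difference of SCPEP1 was 0.12, with a 95% interval from -0.39 to 0.64 (limma adjusted p = 0.993), and it was 0.31 without EV 2. Its more 5′ probe, printed above, was well above background on 1 of the 7 arrays and was not tested.

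CTSA, the protective protein that stabilises lysosomal neuraminidase and galactosidase, read 4.40, 4.66, 4.25 and 4.33 on the EV arrays and 4.35, 4.33 and 4.36 on the HOTAIR arrays. The 3 HOTAIR arrays lay close together and inside the EV range. The difference of CTSA was -0.07 (interval -0.35 to 0.22, limma adjusted p = 0.993). PRCP, which cleaves peptides after proline, read 3.43, 3.12, 3.42 and 3.63 on the EV arrays and 3.29, 3.30 and 3.27 on the HOTAIR arrays. These too overlapped, and the difference of PRCP was -0.11 (interval -0.43 to 0.20, limma adjusted p = 0.993). At the brightest tested probe of SCPEP1, CTSA and PRCP the upper ends of the intervals were 0.64, 0.22 and 0.20. They are not set against a firm value for CPVL, whose EV signal was not above background and whose difference with normexp correction was 0.52.

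Among the 43 tested genes other than CPVL, none passed the limma test at an adjusted p of 0.05, against 34 of all 20419 tested probes (0.167%). The lowest adjusted p among them was 0.467, for CTSH. At an unadjusted p under 0.05, 4 of the 43 were higher and 1 lower, which is 11.6% of them, where 5.85% of all tested probes passed in either direction. The arrays of both groups did not overlap for 4 of the 43 genes (9.3%), against 7.7% of all tested probes. Of these genes 3 were higher in ACHN-HOTAIR cells (CTSB, CTSZ and LAMP3, where 4.2% of all probes were) and 1 was lower (CTSH, where 3.5% of all probes were). The count of 5 at an unadjusted p fell to 1 without EV 2, without HOTAIR 1 or without HOTAIR 2, and to 2 without EV 1. In these runs 7.47, 3.8, 4.32 and 4.72% of all tested probes passed, in that order. The count of 4 without overlap ran from 5 to 11 with 1 array left out, the 11 without HOTAIR 3, where 21.2% of all probes did not overlap either. With any other single array left out, 9.96 to 14.9% of all probes did not overlap. Neither share is read as a result about the lysosome. The median difference of the 43 genes was 0.03 and that of all tested probes 0.01, and no gene of the 43 reached 2-fold with all arrays. With EV 2 left out the median was -0.01, and with EV 2 and HOTAIR 3 both left out it was 0.02, with no gene called either time. The median half-width of the 43 intervals was 0.32, which is the precision that 7 arrays gave.

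**Figure D2:**
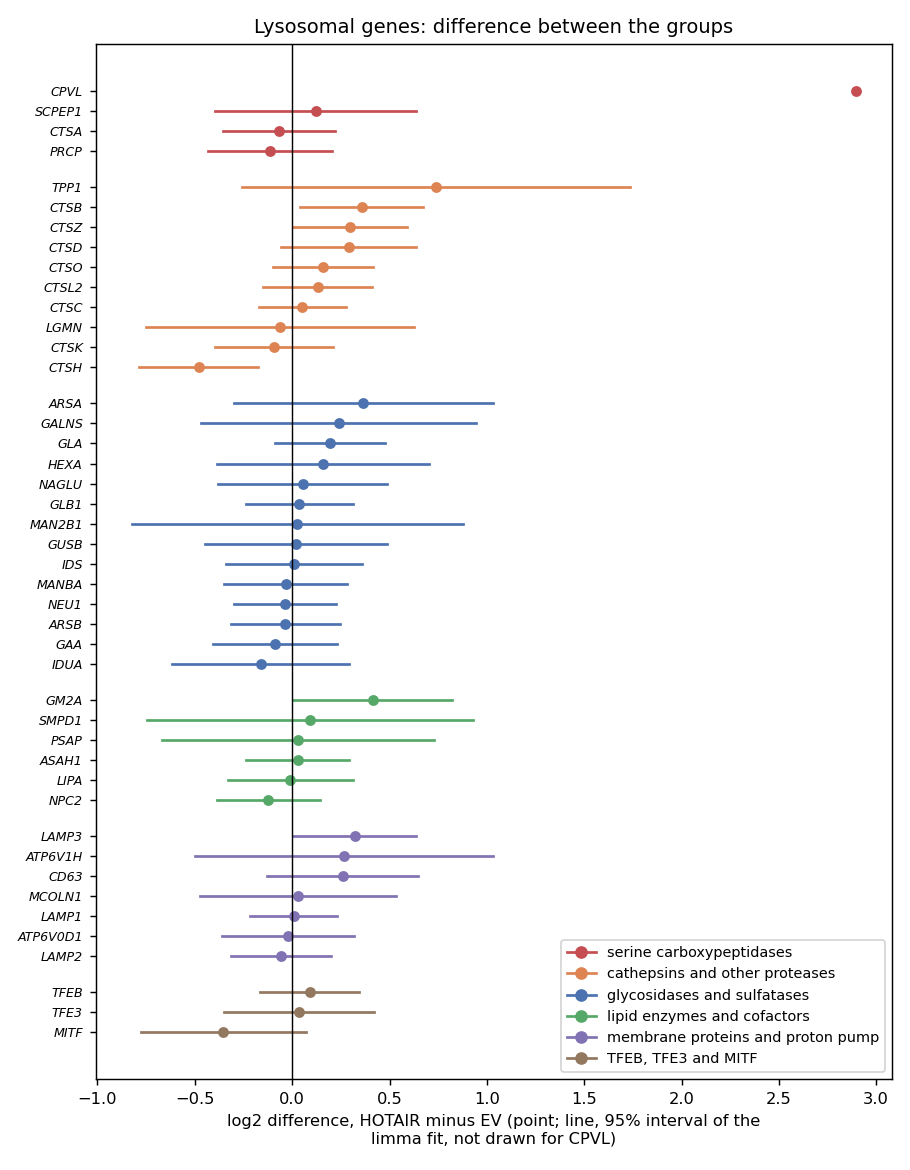
Difference between the groups for each of the 44 tested genes, by role, as log2 HOTAIR minus EV, with the 95% interval of the limma fit as a line. CPVL, which was chosen by this difference and whose EV signal was not above background, is drawn without an interval at 2.90, and all other points lie between -0.48 and 0.74.

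Of the cathepsins and other proteases, 10 of 12 were tested, of which 7 had a higher and 3 a lower mean in ACHN-HOTAIR cells. CTSH, an aminopeptidase of the papain family, read 0.30, 0.62, 0.21 and 0.24 on EV 1 to 4 and -0.11, -0.22 and -0.09 on HOTAIR 1 to 3. All 3 HOTAIR arrays lay below all 4 EV arrays. The difference of CTSH was -0.48 (interval -0.79 to -0.18), the lowest of the set, and it did not pass the limma test (adjusted p = 0.467).

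CTSB, an abundant lysosomal cysteine protease, read 0.26, 0.09, 0.21 and 0.58 on the EV arrays and 0.69, 0.59 and 0.64 on the HOTAIR arrays. The groups were parted by the narrow gap between EV 4 and HOTAIR 2. The difference of CTSB was 0.36 (interval 0.04 to 0.67, limma adjusted p = 0.77). CTSZ, a carboxypeptidase among the cathepsins, read 0.86, 0.91, 0.62 and 1.04 on the EV arrays and 1.15, 1.08 and 1.23 on the HOTAIR arrays. Here EV 4 and HOTAIR 2 were again the closest pair, and the difference was 0.30 (limma adjusted p = 0.845).

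TPP1, a tripeptidyl peptidase, had the highest difference in the set after CPVL, 0.74, with the widest interval of these proteases (-0.26 to 1.73). It read 1.77, 0.62, 2.12 and 2.65 on the EV arrays and 2.61, 2.38 and 2.60 on the HOTAIR arrays. The EV spread was set largely by EV 2, and without that array the difference was 0.35 (limma adjusted p = 0.799). Without EV 4, the highest EV array, it was 1.03, past 2-fold, and still not called. A second TPP1 probe, nearer the 3′ end, gave -0.08. The aspartic protease CTSD differed by 0.29 (limma adjusted p = 0.926), and CTSO, CTSL2 (the present CTSV) and CTSC by 0.16, 0.13 and 0.05. For CTSC the other probes gave 0.24 and -0.22, the latter with no overlap between the groups (limma adjusted p = 0.912). LGMN, an asparaginyl endopeptidase, differed by -0.06, or -0.32 without EV 2, and CTSK, a collagenase of osteoclasts, by -0.09. CTSF and CTSS, a protease of antigen-presenting cells, stayed at background on all 7 arrays.

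Of the glycosidases and sulfatases, 14 of 15 were tested, and no unadjusted p was under 0.05 in either direction. Their differences ran from -0.16 for IDUA, which degrades dermatan and heparan sulfate, to 0.37 for ARSA, which desulfates sulfatide. Without EV 2, IDUA stood at 0.01 and ARSA at 0.19, and the lowest was the mannosidase MAN2B1 at -0.28. The ARSA value also rested on HOTAIR 3, since HOTAIR 1 and 2 lay above all 4 EV arrays and HOTAIR 3 did not. With EV 2 and HOTAIR 3 both left out, ARSA had the lowest limma adjusted p of the 43 tested genes other than CPVL, 0.302, and was not called. The median was 0.02, with 9 genes above and 5 below 0. GUSB, the β-glucuronidase often used as a reference gene, read 4.11, 3.58, 4.22 and 4.17 on the EV arrays and 4.08, 4.30 and 3.75 on the HOTAIR arrays. EV 2 was the lowest of its group there and HOTAIR 3 of its own, and the difference of GUSB was 0.02 (interval -0.45 to 0.49). The neuraminidase NEU1, which needs CTSA for its stability, differed by -0.04 (interval -0.30 to 0.23), next to -0.07 for CTSA itself. HEXA, GLA, GLB1 and GAA, whose loss causes storage diseases, differed by 0.16, 0.19, 0.04 and -0.09, and without EV 2 by -0.03, 0.13, -0.01 and -0.17.

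All 6 lipid enzymes and cofactors were tested, with differences from -0.12 for the cholesterol-binding NPC2 to 0.41 for GM2A, the activator of ganglioside breakdown. GM2A read 1.41, 0.93, 1.04 and 1.16 on the EV arrays and 1.73, 1.70 and 1.22 on the HOTAIR arrays. HOTAIR 3 lay below EV 1, so the groups overlapped, and the limma adjusted p was 0.838. A second GM2A probe gave a difference of 0.13. The acid lipase LIPA and the ceramidase ASAH1 differed by -0.01 and 0.03, with intervals from -0.33 to 0.31 and from -0.24 to 0.29, and without EV 2 by -0.08 and -0.02.

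The 7 membrane proteins and proton pump subunits had differences from -0.06 for LAMP2 to 0.32 for LAMP3. LAMP3, which is also known from dendritic cells, read -4.04, -4.13, -3.82 and -3.86 on the EV arrays and -3.66, -3.45 and -3.81 on the HOTAIR arrays. EV 3 and HOTAIR 3 nearly touched, and the difference of LAMP3 did not pass the limma test (adjusted p = 0.838). It was 0.12 with normexp correction and 0.21 with quantile normalization. LAMP1, a main component of the lysosomal membrane, differed by 0.01 (interval -0.21 to 0.23), one of the narrowest bounds in the set. The tetraspanin CD63 differed by 0.26, the calcium channel MCOLN1 by 0.03, and the pump subunits ATP6V0D1 and ATP6V1H by -0.02 and 0.27, with limma adjusted p-values of 0.951 to 0.996. Without EV 2, MCOLN1 stood at -0.10 and ATP6V0D1 at 0.06.

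**Figure D3:**
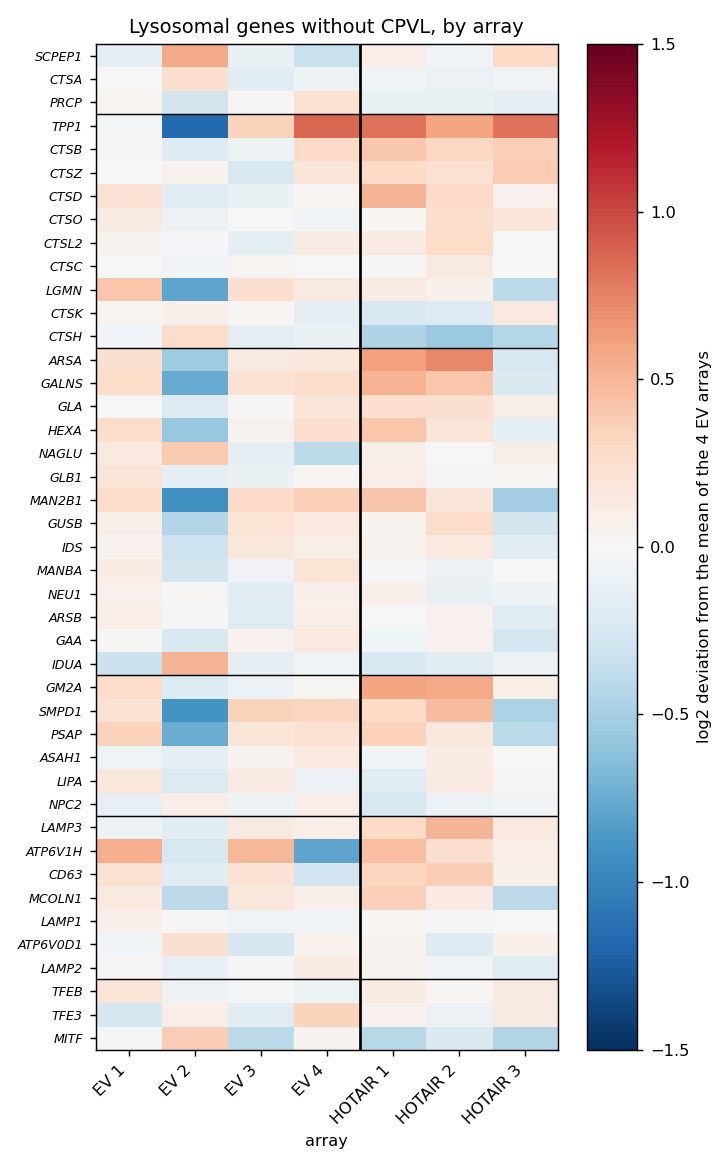
Deviation of the 43 tested genes other than CPVL from the mean of the 4 EV arrays, on each array, in log2 units, with the roles separated by horizontal lines and the groups by the vertical line. The EV 2 column holds most of the deepest blue cells, for TPP1, MAN2B1, SMPD1, LGMN, GALNS and PSAP, with ATP6V1H on EV 4 among them, and several of the same genes are blue on HOTAIR 3.

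The transcription factors of lysosomal genes were measured by 7 probes, all tested. TFEB read 0.64, 0.38, 0.44 and 0.38 on the EV arrays and 0.57, 0.48 and 0.59 on the HOTAIR arrays, a difference of 0.09 (interval -0.16 to 0.35). TFE3 read -0.41, -0.05, -0.32 and 0.19 on the EV arrays and -0.08, -0.24 and -0.01 on the HOTAIR arrays, a difference of 0.04 (interval -0.35 to 0.42). For both factors the HOTAIR arrays lay inside the EV range, and the limma adjusted p was 0.993.

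MITF, which also governs melanocyte and osteoclast genes, read 1.71, 2.09, 1.33 and 1.78 on the EV arrays and 1.32, 1.51 and 1.29 on the HOTAIR arrays. HOTAIR 2 lay above EV 3, and the difference was -0.35 (interval -0.78 to 0.07, limma adjusted p = 0.926). The other MITF probes gave -0.40 and -0.34, so all 3 had a lower mean in ACHN-HOTAIR cells. On the most 3′ of them the groups did not overlap, with an adjusted p of 0.612.

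The palindrome these factors bind has the core CACGTG, and RefSeq promoter windows (GRCh38.p14, 250 bases before to 50 after each transcript start) were searched for it. Windows were found for 33 of the 47 genes, 55 windows in all. CACGTG stood in 12 of the 55 (21.8%) and in 7.26% of all 35116 windows. The longer TCACGTGA, which contains it, stood in 7 of the 55 and in 0.98% of all (ATP6V0D1, CTSA, GAA, GALNS, LAMP1, MCOLN1 and SCPEP1 among the members). Both strands were searched, and both motifs equal their own reverse complement. For scale, 4 motifs of other kinds were searched in the same windows. TGACNNNGC stood in 16 of the 55 (29.1%, against 13.3% of all) and GGGCGG in 38 (69.1%, against 45% of all), so these too were more frequent than in all windows. TGAGTCA stood in 2 (3.64%, against 4.95% of all) and TATAAA in 1 (1.82%, against 11.5% of all). A longer form of TCACGTGA was searched too and is not given here. The 12 genes were ARSB, ATP6V0D1, CD63, CTSA, CTSD, CTSF, GAA, GALNS, LAMP1, MCOLN1, NEU1 and SCPEP1. The 250 bases before the start of CPVL, SCPEP1 and CTSA are shown, CACGTG in capitals, because SCPEP1 and CTSA hold the motif and none of the 3 CPVL windows does, nor does PRCP, a further relative. They lie at chr7:29195268-29195517 (minus strand; the most upstream of the 3 CPVL starts), chr17:56977881-56978130 (plus strand) and chr20:45891085-45891334 (plus strand).
CPVL: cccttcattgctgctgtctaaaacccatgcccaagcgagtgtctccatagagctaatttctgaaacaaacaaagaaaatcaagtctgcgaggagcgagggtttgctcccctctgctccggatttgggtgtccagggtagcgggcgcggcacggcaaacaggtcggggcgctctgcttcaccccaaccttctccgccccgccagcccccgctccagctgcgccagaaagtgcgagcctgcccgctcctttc
SCPEP1: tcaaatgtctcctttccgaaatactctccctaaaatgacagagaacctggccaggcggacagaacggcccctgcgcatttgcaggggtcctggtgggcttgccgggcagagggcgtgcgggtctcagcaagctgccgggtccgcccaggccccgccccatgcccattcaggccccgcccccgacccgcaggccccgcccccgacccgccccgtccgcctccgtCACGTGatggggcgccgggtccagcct
CTSA: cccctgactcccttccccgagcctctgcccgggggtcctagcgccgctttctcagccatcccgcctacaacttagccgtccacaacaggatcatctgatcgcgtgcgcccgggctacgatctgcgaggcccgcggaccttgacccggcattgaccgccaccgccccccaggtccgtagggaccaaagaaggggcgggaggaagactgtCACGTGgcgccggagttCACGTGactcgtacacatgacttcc
CTSA held CACGTG at 2 places and SCPEP1 at 1. The 11 tested genes with the motif had differences from -0.09 to 0.29 with a median of 0.01, and the 19 tested genes other than CPVL with a window but no motif had differences from -0.48 to 0.74 with a median of 0.04. A match in these letters is a description and does not show that a factor binds there.

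Genes with several tested probes showed where EV 2 differed. Of 10 such genes, the most 5′ probe minus the most 3′ probe was lowest on EV 2 among the EV arrays in 7, and lowest on HOTAIR 3 among the HOTAIR arrays in 9. Relative to the EV median of that quantity, EV 2 stood at -2.44 for TPP1, -1.88 for CTSA and -1.02 for PSAP, the precursor of the saposins. HOTAIR 3 stood at -0.14, -0.92 and -0.60 for the same genes, and the other 5 arrays were between -0.21 and 0.53. In 5 of the 10 genes the difference between the groups had opposite signs at the 5′ and the 3′ probe, as for CTSA (0.07 and -0.07). Over all 43 genes, EV 2 was the lowest EV array in 25 and HOTAIR 3 the lowest HOTAIR array in 23. No share over all tested probes stands beside these counts, so they are not read as a trait of lysosomal genes. The part of RNA quality in these values was not tested.

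**Figure D4:**
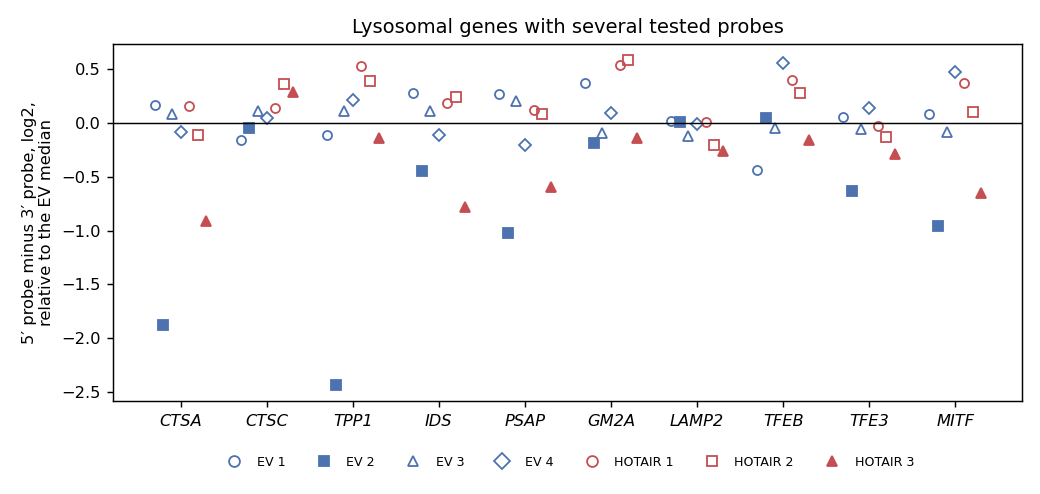
The most 5′ probe minus the most 3′ probe of each of 10 genes, in log2 units relative to the EV median, with one symbol per array (EV blue, HOTAIR red; EV 2 and HOTAIR 3 filled). EV 2 lies far below the other arrays for CTSA and TPP1 at -1.88 and -2.44, and HOTAIR 3 lies at or near the bottom in most genes.

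A wider list of 115 other lysosomal genes with a probe was read in the same fit, and 103 of them were tested. None passed at an adjusted p of 0.05, and the lowest adjusted p was 0.162. At an unadjusted p under 0.05, 4 were higher and 2 lower (5.83%, against 5.85% of all tested probes), and the groups did not overlap for 4 higher and 3 lower genes (6.8%, against 7.7%). Their median difference was 0.02. By role the medians of the 6 lists ran from -0.04 for sorting and biogenesis genes, with 7 of 21 above 0, to 0.12 for other membrane proteins, with 13 of 17 above 0, where 52.8% of all tested probes were above 0.

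ACP5, the tartrate-resistant acid phosphatase, had the largest difference of the genes that were separated upward. It read -4.66, -4.22, -4.53 and -4.50 on EV 1 to 4 and -3.77, -3.87 and -3.68 on HOTAIR 1 to 3, a difference of 0.70 (interval 0.40 to 1.01, limma adjusted p = 0.162). SQSTM1, the autophagy receptor p62, differed by 0.44 (limma adjusted p = 0.56), and TPCN1, an endolysosomal cation channel, by 0.42 (adjusted p = 0.654). In the other direction HYAL1, a lysosomal hyaluronidase, read -2.37, -1.67, -2.29 and -1.84 on the EV arrays and -2.89, -3.00 and -2.55 on the HOTAIR arrays. The difference of HYAL1 was -0.77 (interval -1.25 to -0.28, limma adjusted p = 0.457). GNPTAB, which makes the mannose 6-phosphate tag of lysosomal enzymes, differed by -0.32 (limma adjusted p = 0.632), but its more 5′ probe gave 0.39. GGA3, a sorting adaptor of the Golgi, differed by -0.29 (limma adjusted p = 0.869).

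**Figure D5:**
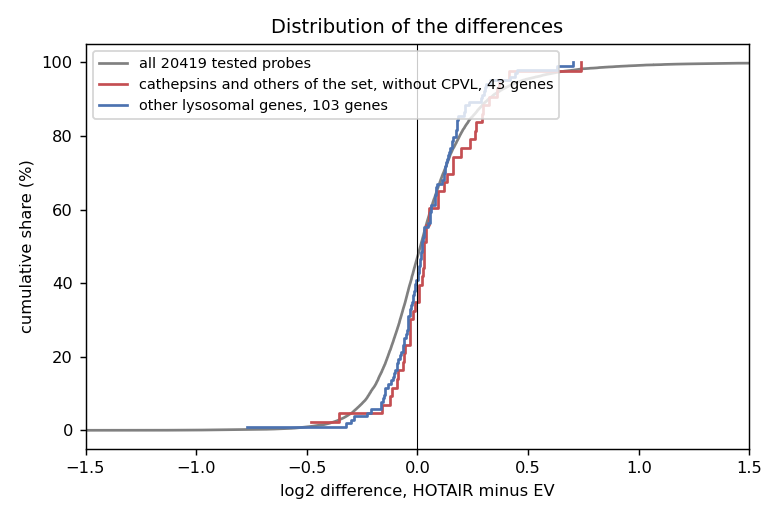
Cumulative share (%) of differences, log2 HOTAIR minus EV, for all 20419 tested probes, the 43 tested genes of the set other than CPVL, and the 103 tested other lysosomal genes. The 3 curves run close together, with medians of 0.01, 0.03 and 0.02.

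The genes on either side of CPVL on chromosome 7 did not show a difference like that of CPVL. CREB5, a transcription factor on one side, differed by 0.06 (interval -0.22 to 0.34, limma adjusted p = 0.993). Neither TRIL on that side nor CHN2 on the other, whose RefSeq gene region overlaps that of CPVL, rose well above background at any of their probes. PRR15 and SCRN1 differed by 0.27 and -0.07 (limma adjusted p = 0.993 for both), and a second SCRN1 probe gave 0.43. WIPF3, a regulator of actin, had the largest difference of the neighbours, 0.81 (interval 0.09 to 1.54, limma adjusted p = 0.77). That value was 0.16 with normexp correction and 1.06 without EV 2 (limma adjusted p = 0.239). It read -5.58, -4.19, -5.12 and -4.79 on the EV arrays, 2 of them well above background, and -4.30, -4.20 and -3.82 on the HOTAIR arrays. EV 2 lay inside the HOTAIR range, so the groups overlapped. A second WIPF3 probe, well above background on 1 EV array and no HOTAIR array, was not tested and gave -0.0046.

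Because CPVL and lysosomal hydrolases are abundant in macrophages, markers of that cell type were read on the same arrays. Of 10 macrophage markers 8 had a probe, 4 (CD14, CSF1R, MSR1 and TYROBP) were well above background on all 7 arrays, and CD163 was on none. PTPRC, which all leukocytes carry, was well above background on at most 2 EV arrays and 1 HOTAIR array at any of its 5 probes. Summed over the 8 genes, the linear signal relative to the 75th percentile was 0.398 to 0.469 on the EV arrays and 0.433 to 0.507 on the HOTAIR arrays. CSF1R, a macrophage growth factor receptor, read -3.95, -4.45, -4.04 and -4.02 on the EV arrays and -3.03, -3.02 and -3.21 on the HOTAIR arrays. That difference of 1.03 did not pass the limma test (adjusted p = 0.07), although the groups did not overlap. MSR1, a scavenger receptor, differed by -0.59 with no overlap (limma adjusted p = 0.282), and CD14 by 0.12. TYROBP, a signalling adaptor of myeloid cells, differed by 0.84, with overlapping groups and a wide interval (-0.61 to 2.28, limma adjusted p = 0.983). The part of macrophage-type RNA in the CPVL values was not tested.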

How the data were processed

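Gene expression was measured with the SurePrint G3 Human GE 8x60K array in 4 EV and 3 HOTAIR samples of ACHN cells. The authors scanned each array and deposited background-corrected spot intensities from Agilent Feature Extraction 10.7.3.1, and the probe coordinates in those files are hg19. Here the processed intensity was divided by the 75th percentile of its array and taken to log2, outlier spots were left out, spots of a probe were averaged, and the brightest tested probe stood for a gene. The deposited value table, whose intensities lay within 0.498% of the processed signal of the same spots (array medians 18.6 to 28.3), served without scaling as an alternative. Groups were compared with limma 3.58.1 in R 4.3.3 over all 20419 tested probes, with Benjamini-Hochberg adjustment and a threshold of 0.05. A probe counted as well above background where at least 50% of its spots were. The fit was tested on simulated data with independent noise for each probe and array. Such data lack effects shared across an array, so the test does not cover those.

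Members, gene lists and promoter motifs were chosen with earlier results of these arrays known. Array by array values are given for CPVL, SCPEP1, CTSA, PRCP, TFEB, TFE3, MITF and members whose groups did not overlap, and for the 3 largest such differences in each direction among other lysosomal genes a value is given. TPP1, GUSB, GM2A and WIPF3 are shown by array as examples of their group. Of the 62 probes, 61 matched a RefSeq gene by accession. The number of arrays limits the precision. The rank product, by which the study picked out its most strongly upregulated genes and drew a heat map, was not run here. One marker of the kidney list is not reported here.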

Additional observations from a re-analysis of the deposited data

Results flagged for a closer look

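In 7 genes of the set, EV 2 stood far from the other EV arrays. The gap from EV 2 to its nearest neighbour, as a share of the whole EV range, was 0.951 for GALNS, 0.94 for MAN2B1, 0.906 for SMPD1, 0.857 for ARSA, 0.852 for PSAP, 0.84 for MCOLN1 and 0.832 for GUSB, each above Dixon's critical value for 4 arrays. EV 2 was the low array each time, at -3.30 for GALNS where the other EV arrays read -2.32 to -2.27, and at -4.03 for SMPD1 where they read -2.91 to -2.79. Chance alone passes about 1 in 20 groups. The genes singled out by rule were scanned first and none passed, after which the scan was widened to 48 genes, the neighbours of CPVL included, of which chance would pass 2.4. Without EV 2 the differences of these 7 genes were -0.01 for GALNS, -0.28 for MAN2B1, -0.20 for SMPD1, 0.19 for ARSA, -0.22 for PSAP, -0.10 for MCOLN1 and -0.13 for GUSB, and none passed the limma test. HOTAIR 3 stayed in that fit. It lay below the EV mean in all 7 genes, from -0.22 for GALNS to -0.52 for MAN2B1, so these differences are not free of a low array.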

How the results depend on the processing

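No gene of the set other than CPVL, no other lysosomal gene and no neighbour of CPVL was called under any alternative run. Over all probes, where 34 were called, normexp background correction called 12, no filter on dim probes 14, a filter on all arrays 22, eBayes with trend and robust settings 20, and single arrays left out 9 to 30. EV 2 and HOTAIR 3 were left out together as an alternative chosen after seeing the data. With CPVL counted in, which was chosen by this contrast and so tests nothing, the set's count is 1, and it was 0 under normexp correction, where the CPVL difference was 0.517, and 0 under the all-array filter, which drops its probe. With a replicate block, 0 probes and 0 genes of the set were called. The labels do not say whether equal replicate numbers were paired, and the block leaves EV 4 without a partner. Deviations of equal numbers from their group means correlated at 0.386, -0.368 and -0.406. With groups of 3 and 4 arrays, these values cannot decide whether the arrays were paired. The CTSA difference changed sign with EV 2 and HOTAIR 3 both left out (0.0079), and ran from -0.119 to 0.0149 with single arrays left out. TFE3 ran from -0.0496 to 0.15 with single arrays left out and was -0.051 with normexp correction, where CREB5 turned to -0.0347 and SCRN1 to 0.0617. The causes were not tested. For the 14 genes recomputed under every alternative (10 of the set and the 4 tested neighbours), the other 215 values kept their direction and their side of the threshold. For the rest of the set only EV 2 was left out singly gene by gene, with HOTAIR 3 kept, which turned 13 of 43 signs, CTSA included. With 3 against 4 arrays the intervals leave room for changes of about 0.32 in a typical gene. Signals near background, as for CPVL on the EV arrays, give no firm size of a difference.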
